A study of Mus musculus with 12 samples.

Results

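Expression of the muscle ubiquitin ligases and of the FoxO factors known to control them was examined in C2C12, a line of mouse myoblasts that fuse into myotubes when differentiated. The set was chosen by gene symbol and holds 9 genes: *Trim63*, *Trim54*, *Trim55*, *Fbxo32*, *Fbxo30*, *Klhl41*, *Foxo1*, *Foxo3* and *Foxo4*. Of these, 7 had a probe on the array (10 of 25697 probes, 7 of 16593 symbols), and *Trim55* and *Klhl41* had none under these symbols. Cells between passages 10 and 18 were reverse transfected with pooled siRNAs against *Zbed6* or with pooled scrambled siRNAs (the control), kept in growth medium with serum, and collected after 48 h or 96 h. ZBED6, a DNA-binding protein of transposon origin, is best known for repressing *Igf2*. The 12 samples form 4 groups of 3 biological replicates with 1 array each, named here control 48 h, silenced 48 h, control 96 h and silenced 96 h. All groups come from 1 cell line and carry transfection reagent and an siRNA, and no untransfected cells were analysed here. No probe was named *Zbed6*, so the silencing itself could not be read from these arrays.

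Skeletal muscle breaks down its own proteins largely through the ubiquitin-proteasome system, in which an E3 ligase recognizes a protein and marks it with ubiquitin. *Trim63* (MuRF1) and *Fbxo32* (atrogin-1, the substrate receptor of an SCF complex) are the classical atrophy genes, transcribed when muscle loses mass. FoxO transcription factors bind their promoters, and insulin or IGF signalling through AKT keeps FoxO proteins phosphorylated and out of the nucleus.

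The arrays were alike in quality. Between 12078 and 12558 probes were detected on each array (47% to 48.9%), the median raw signal was 76.5 to 90.8, and arrays of 1 group correlated at 0.9939 or more. Of 11 markers of skeletal myoblasts and myotubes, 9 were on the array and 7 were detected on all 12 arrays, *Myod1*, *Myog*, *Des*, *Ckm*, *Tnnt3*, *Actc1* and *Chrna1*, while *Myf5* and *Pax7*, which mark muscle precursors, were detected on 0 arrays. Of 21 markers of other cell types, 19 were on the array and 13 were detected on 0 arrays, among them the defining markers *Adipoq* and *Plin1* of adipocytes, *Ptprc* of leukocytes, *Pecam1* and *Cdh5* of endothelium and *Myh11* of smooth muscle. Of the 6 that were kept, the actin *Acta2*, listed for smooth muscle, was detected on all 12 arrays at 15.15 to 15.4, and *Pparg*, listed for adipocytes, at 7.55 to 7.87. The summed signal of the 7 muscle markers was 97540 to 104500 in control 48 h, 103200 to 111700 in silenced 48 h, 80980 to 87470 in control 96 h and 97680 to 104900 in silenced 96 h. That of the 6 measured markers of other cell types was 39390 to 41220, 36870 to 41250, 39350 to 42250 and 42020 to 44220 in the same order. Both sums were taken on the unlogged scale, so they follow the brightest genes. The second sum is almost entirely *Acta2*, as the other markers in it reached at most 8.52 on the log2 scale.

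Promoter sequence is shown for *Trim63* and *Trim54*, the members whose silenced and control arrays did not overlap on at least 1 day on the brightest probe. Both are from RefSeq on mouse build GRCm38.p6, plus strand, and cover the 250 bases before the annotated transcript start. *Trim63* lies at chr4:134314870-134315119 and *Trim54* at chr5:31116362-31116611. Capitals mark the FoxO core motif GTAAACA, which reads TGTTTAC on the other strand, and the E-box CANNTG, the motif bound by myogenic factors such as MYOD1.
Trim63: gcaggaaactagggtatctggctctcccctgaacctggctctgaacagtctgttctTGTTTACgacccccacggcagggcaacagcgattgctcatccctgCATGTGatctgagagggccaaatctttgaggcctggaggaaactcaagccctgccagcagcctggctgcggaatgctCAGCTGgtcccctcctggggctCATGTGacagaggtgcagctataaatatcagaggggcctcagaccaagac
Trim54: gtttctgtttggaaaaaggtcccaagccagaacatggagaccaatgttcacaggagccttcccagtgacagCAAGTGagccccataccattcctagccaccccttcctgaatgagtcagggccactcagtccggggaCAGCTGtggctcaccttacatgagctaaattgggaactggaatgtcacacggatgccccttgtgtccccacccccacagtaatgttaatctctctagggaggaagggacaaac

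Promoters of 6 members (*Trim63*, *Trim54*, *Fbxo30*, *Klhl41*, *Foxo1* and *Foxo3*) were searched on both strands over 300 bases, from 250 before to 50 after the start. The FoxO core was found in 1 of them, *Trim63*, at positions -194 to -188 from the start, and in 3.65% of 32851 promoters. An E-box was present in 4 of 6, with 3 matches in *Trim63*, 2 in *Trim54*, 4 in *Klhl41* and 1 in *Foxo1*, and in 72.3% of all promoters. The ZBED6 consensus GCTCGC was in 0 of 6, against 14.1% of all promoters. No overlap between the 3 motifs occurred in the printed stretches. These matches describe letters in the windows searched.

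Of the 7 genes on the array, 5 passed the detection filter (detected, at p under 0.05, on 3 or more of the 12 arrays) and were tested: *Trim63*, *Trim54*, *Fbxo32*, *Fbxo30* and *Foxo1*. *Foxo3* and *Foxo4*, which encode the other FoxO factors of the set, were detected on 0 of 12 arrays, with raw signals of 50.7 to 68.2 and 48.7 to 60.7. Their probes were not well above background in any group, and no difference is given for them. Signals below are normalized log2 intensities of the brightest kept probe of a gene, and they are compared between arrays, not between genes.

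*Trim63*, the RING ligase MuRF1 that sits at the sarcomere and targets thick filament proteins, was higher on silenced than on control arrays at both times. The signal was 8.12, 8.08 and 8.12 in control 48 h and 8.62, 8.31 and 8.26 in silenced 48 h. It was 7.68, 8.14 and 7.76 in control 96 h and 8.33, 8.28 and 8.20 in silenced 96 h. On each day the lowest silenced array exceeded the highest control array, and control 96 h replicate 2 stood above the other control arrays of 96 h. Such separation was common, in the upward direction for 16.7% of the 8858 genes tested at 48 h and for 16.1% at 96 h. The difference was 0.29 on the log2 scale at 48 h (SE 0.11, 95% interval 0.04 to 0.54, limma adjusted p = 0.12) and 0.41 at 96 h (SE 0.12, 0.13 to 0.69, 1.33-fold, adjusted p = 0.078), so neither passed the threshold of 0.05 over all genes. With 1 of the 6 arrays of 96 h left out, the difference at 96 h ranged from 0.32 to 0.55. It passed in 1 of these fits, without control 96 h replicate 2 (0.55, adjusted p = 0.038). In the other 5 it did not pass (adjusted p of up to 0.21). The adjusted p from limma at 96 h was also below the threshold with no background correction (difference 0.33, adjusted p = 0.03), with median scaling (0.44, adjusted p = 0.047) and with an offset of 50 (0.36, adjusted p = 0.038). In the other 7 of the 10 settings run, *Trim63* did not pass at 96 h (adjusted p of up to 0.12).

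*Trim54*, the related ligase MuRF3, which binds and stabilizes microtubules in muscle cells, was the only member past the threshold between silenced and control cells, and only at 96 h. The signal was 10.46, 10.28 and 10.23 in control 48 h and 10.46, 10.47 and 10.26 in silenced 48 h. It was 9.64, 9.95 and 9.78 in control 96 h and 10.33, 10.28 and 10.19 in silenced 96 h. The groups overlapped at 48 h, and all 3 control arrays of 96 h lay below every other array. Of all genes tested, 16.1% had silenced above control arrays at 96 h, and 22.4% had control 96 h below control 48 h arrays. The share with the whole *Trim54* pattern was not computed. Silenced cells exceeded control cells by 0.47 at 96 h (SE 0.098, 95% interval 0.25 to 0.70, 1.39-fold, limma adjusted p = 0.032) and by 0.07 at 48 h (SE 0.1, -0.16 to 0.30, adjusted p = 0.69). The difference between these effects was 0.40 (SE 0.14, 0.10 to 0.71), with an unadjusted p of 0.014 and an adjusted p of 0.11 in limma, so a larger effect at 96 h than at 48 h did not pass the threshold. The 96 h call was lost without control 96 h replicate 1 (0.40, adjusted p = 0.1), control 96 h replicate 3 (0.47, 0.08), silenced 96 h replicate 1 (0.44, 0.095) or silenced 96 h replicate 2 (0.47, 0.082).

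**Figure D1:**
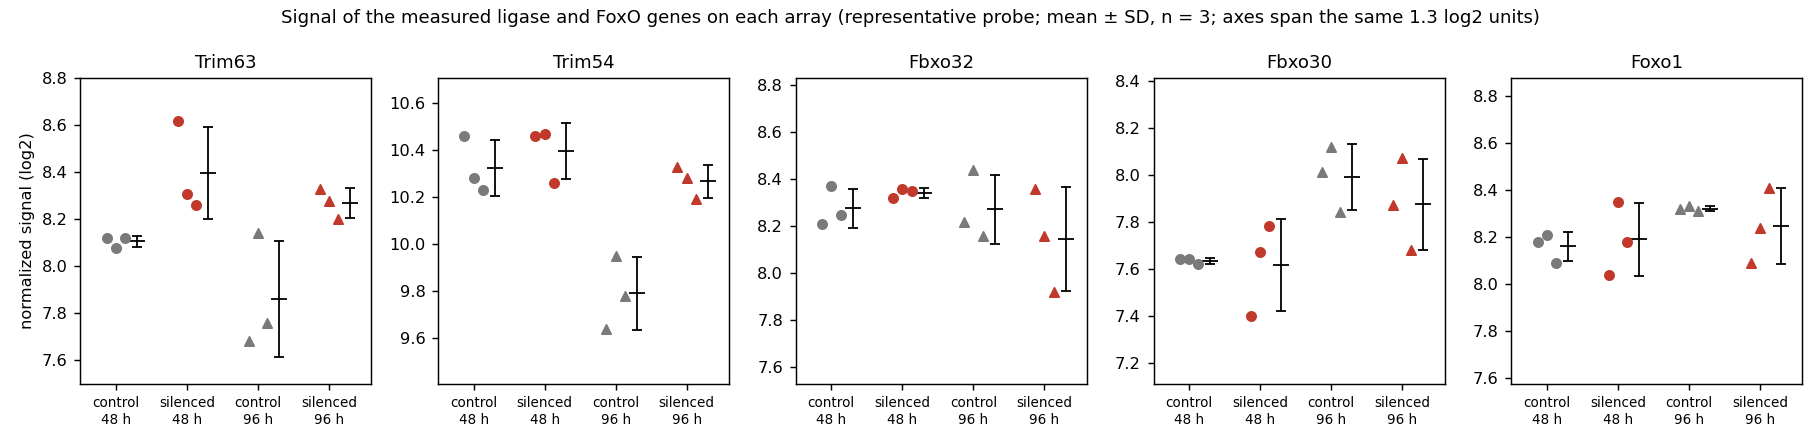
Normalized log2 signal (y axis, each panel spanning 1.3 log2 units) of the 5 measured members on each of the 12 arrays, by group (x axis). Points are arrays (grey control, red silenced, circles 48 h, triangles 96 h), and bars give the mean ± SD of 3 arrays. The 3 control 96 h arrays of *Trim54*, at 9.64 to 9.95, sit below its other 9 arrays, which lie at 10.19 to 10.47. The share of all genes with this pattern was not computed.

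*Fbxo32*, *Fbxo30* and *Foxo1* did not pass the threshold between silenced and control cells on either day. For *Fbxo32* the mean was 8.28 ± 0.086 (SD, n = 3) in control 48 h, 8.34 ± 0.017 in silenced 48 h, 8.27 ± 0.15 in control 96 h and 8.15 ± 0.22 in silenced 96 h. *Fbxo30* (MUSA1), another F-box receptor of muscle atrophy that is held down by BMP signalling, had means of 7.63 ± 0.013, 7.62 ± 0.2, 7.99 ± 0.14 and 7.87 ± 0.2 in the same order. *Foxo1*, the FoxO factor measured here, had 8.16 ± 0.061, 8.19 ± 0.15, 8.32 ± 0.011 and 8.25 ± 0.16. Control and silenced arrays overlapped on both days for all 3 genes. The 95% intervals of silenced minus control were -0.13 to 0.26 at 48 h and -0.42 to 0.16 at 96 h for *Fbxo32*. They were -0.26 to 0.24 and -0.39 to 0.16 for *Fbxo30*, and -0.20 to 0.26 and -0.29 to 0.15 for *Foxo1*. These intervals bound the differences and do not show that the levels were equal.

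Over the 5 tested members, limma called 0 at 48 h (1 at an unadjusted p under 0.05) and 1, in the higher direction, at 96 h (2 at an unadjusted p under 0.05). Over all 8858 genes tested, 10.2% were called at 48 h and 6.83% at 96 h, and at 96 h 3.44% were called higher and 3.39% lower. Shares of called genes, here and below, are by adjusted p, and none was computed for counts at an unadjusted p. Low unadjusted values were common. *Trim63* ranked 1894 by p at 48 h (unadjusted limma p of 0.026) and 1004 at 96 h (0.0089). The median difference of the members was 0.07 at 48 h and -0.07 at 96 h, beside 0 over all genes on both days. Of the 5, 4 lay above 0 at 48 h and 2 at 96 h.

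Between 48 h and 96 h, *Trim54* fell in control cells and *Fbxo30* rose. *Trim54* changed by -0.53 (SE 0.1, 95% interval -0.75 to -0.32, 1.45-fold lower at 96 h, limma adjusted p = 0.0015), and no control array of 96 h reached a control array of 48 h, as was so for 22.4% of all genes tested. In silenced cells the same change was -0.13 (SE 0.1, -0.35 to 0.08, adjusted p = 0.36), with overlapping groups. The difference between these changes is the interaction given above for *Trim54*, which did not pass the threshold. *Fbxo30* rose by 0.36 in control cells (SE 0.12, 0.10 to 0.61, 1.28-fold, adjusted p = 0.035), from 7.64, 7.64 and 7.62 at 48 h to 8.01, 8.12 and 7.84 at 96 h. In silenced cells it went from 7.40, 7.67 and 7.78 to 7.87, 8.07 and 7.68, a difference of 0.25 (SE 0.12, adjusted p = 0.13). The *Fbxo30* groups were apart in control cells and overlapped in silenced cells.

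The *Fbxo30* call was near the threshold. It was lost, with differences of 0.29 to 0.36 and an adjusted p of 0.071 to 0.13, when any control array other than control 96 h replicate 3 was left out. Without that array it was 0.43 (adjusted p = 0.028). The fall of *Trim54* in control cells passed without each of the 6 arrays (adjusted p of 0.0017 to 0.0093). *Trim63* differed between the times by -0.24 in control cells (SE 0.12, adjusted p = 0.14) and by -0.13 in silenced cells (SE 0.12, adjusted p = 0.48). Without control 96 h replicate 2 the former was -0.38 (adjusted p = 0.024), and in the other 5 fits with an array left out it did not pass (up to 0.41). *Foxo1* differed by 0.16 (SE 0.098, adjusted p = 0.24) and 0.06 (SE 0.098, adjusted p = 0.7). Its control arrays did not overlap, with 8.18, 8.21 and 8.09 at 48 h below 8.32, 8.33 and 8.31 at 96 h. Separation in this direction held for 25.8% of all genes tested.

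With time, limma called 2 of the 5 members in control cells (1 higher and 1 lower) and 0 in silenced cells (0 at an unadjusted p under 0.05), beside 32.9% and 28% of all genes tested. Their medians were 0 and -0.13, beside 0.02 over all genes in both. For the interaction, 0 of 5 were called (1 at an unadjusted p under 0.05), beside 4.49% of all genes, and the median was -0.10 beside 0.01.

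**Figure D2:**
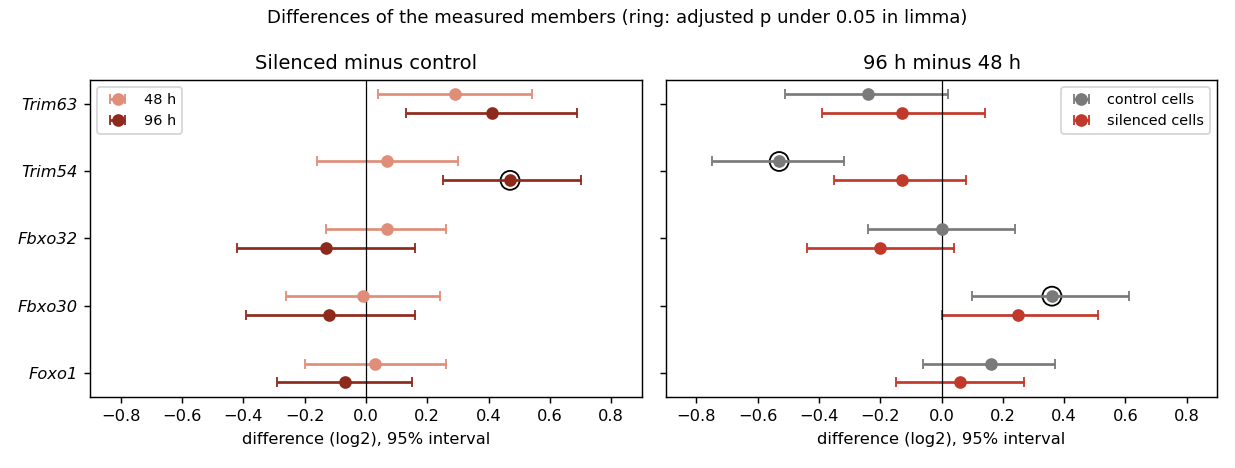
Differences of the 5 measured members (log2, x axis) with 95% intervals, silenced minus control on each day (left) and 96 h minus 48 h in each treatment (right). Rings mark an adjusted p under 0.05 in limma: *Trim54* at 96 h (0.47), and *Trim54* (-0.53) and *Fbxo30* (0.36) with time in control cells.

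*Fbxo32* has 3 probes on the array, and they gave different patterns. The brightest gave 8.21, 8.37 and 8.25 in control 48 h, 8.32, 8.36 and 8.35 in silenced 48 h, 8.22, 8.44 and 8.16 in control 96 h and 8.36, 8.16 and 7.92 in silenced 96 h. The second gave 7.12, 7.22 and 7.20, then 7.19, 7.48 and 7.58, then 7.36, 7.39 and 7.29, then 7.47, 7.44 and 6.96. The dimmest gave 6.57, 6.32 and 6.28, then 6.24, 5.92 and 5.99, then 5.05, 5.17 and 5.43, then 4.80, 5.34 and 4.91. On the dimmest probe every 96 h array lay below every 48 h array, which was not so on the other 2 probes.

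In the fit over the 13095 kept probes, the dimmest *Fbxo32* probe changed by -1.17 from 48 h to 96 h in control cells (SE 0.15, limma adjusted p = 0.00012). In silenced cells it was at least 1.66-fold lower at 96 h, where it was not well above background on any array (fitted difference -1.03, SE 0.15, adjusted p = 0.00027). It was detected on all 3 arrays of each 48 h group and on 1 array of control 96 h. The size of the change depended on the processing. Over the 8 other settings run for this probe, it ranged from -1.17 to -0.13 in control cells and from -1.03 to -0.11 in silenced cells. Over all kept probes, 16.2% were called lower with time in control cells and 14.2% in silenced cells. The brightest probe changed by -0.00 in control cells and -0.20 in silenced cells, and the second by 0.16 (adjusted p = 0.38) and -0.13 (adjusted p = 0.52). For silencing, the second probe gave 0.23 at 48 h (adjusted p = 0.24) and -0.05 at 96 h (0.85), and the dimmest gave -0.34 (0.12) and -0.20 (0.45). Across the 12 arrays the 3 pairs of probes correlated at 0.62, 0.28 and -0.17. The part of the transcript that each probe reads was not used here, and whether the dimmest probe follows another isoform was not tested.

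**Figure D3:**
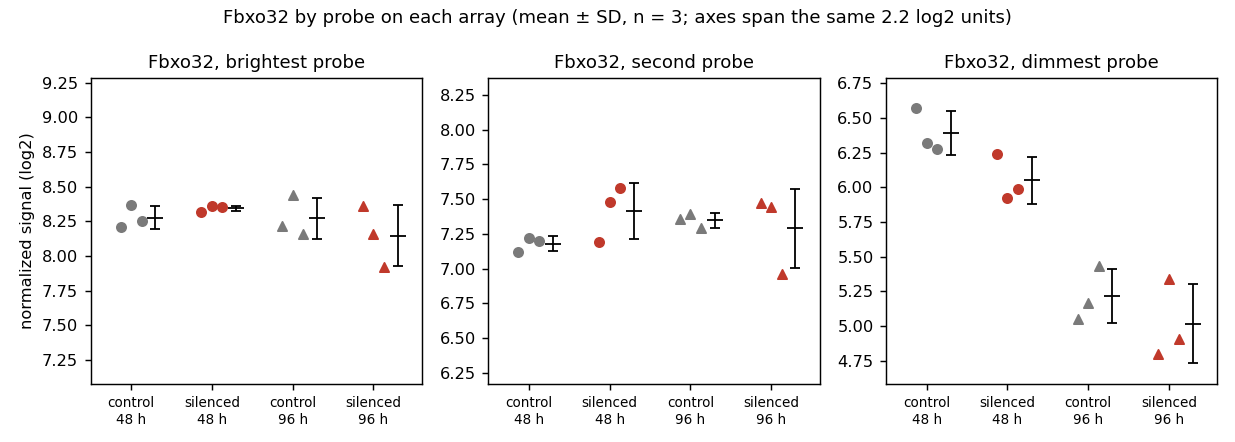
Normalized log2 signal (y axis, each panel spanning 2.2 log2 units) of the 3 *Fbxo32* probes on each array by group (x axis), with the mean ± SD of 3 arrays. The dimmest probe fell from means of 6.39 and 6.05 at 48 h to 5.22 and 5.02 at 96 h, while the means of the brightest stayed between 8.15 and 8.34.

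*Fbxo30* also has a second probe. It was detected on 1 of 12 arrays, with signals of 4.53 to 5.36, and so adds no measurement of the change with time. *Trim63*, *Trim54* and *Foxo1* have 1 probe each.

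Across the 12 arrays, *Trim63* and *Trim54* followed each other at Pearson r = 0.84, while *Trim63* with *Fbxo32* gave 0.24 and *Trim54* with *Fbxo30* gave -0.61. These values are descriptions over arrays that share the day and treatment groups. The genes most like *Trim54* were *Fitm2* (0.972), *Gprc5c* (0.971) and *Abcb6* (0.962), and those most like *Trim63* were *Neu2* (0.922), *Mrps28* (0.907) and *Samd8* (0.9). For *Fbxo32* they were *Rbm48* (0.85), *Lmcd1* (0.847) and *Snap29* (0.844), for *Fbxo30* *Zscan26* (0.956), *Zfp638* (0.935) and *Nr2f1* (0.935), and for *Foxo1* *Syp* (0.919), *Meaf6* (0.856) and *Ptk7* (0.827).

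Some muscle markers differed in the same comparisons as *Trim54*. *Ckm*, the muscle creatine kinase, was higher in silenced than in control cells at 96 h by 0.81 (SE 0.12, limma adjusted p = 0.013) and fell by 1.21 from 48 h to 96 h in control cells (adjusted p = 8.5e-05). With time in control cells, 1 of the 7 markers was called higher and 2 lower, beside 17.7% and 15.2% of all genes. *Actc1* fell too, by 0.63 (adjusted p = 5.7e-05), and *Tnnt3* rose by 0.40 (0.016), against the direction of *Trim54*. In silenced cells, where *Trim54* changed by -0.13 (adjusted p = 0.36), markers were also called with time. There 1 of the 7 was higher and 3 lower, beside 15.6% and 12.4% of all genes. *Ckm* fell by 0.73 (0.0031), *Actc1* by 0.54 (0.00017) and *Myog* by 0.33 (0.019, up to 0.075 with an array left out), and *Tnnt3* rose by 0.44 (0.01). *Tnnt3*, a troponin T of fast fibers, was higher in silenced cells by 0.58 at 96 h (adjusted p = 0.02), and *Actc1*, the cardiac actin of developing muscle, by 0.33 (adjusted p = 0.039). Of the 7 markers, 3 were called higher and 0 lower at 96 h, beside 3.44% and 3.39% of all genes, with a median of 0.17 beside 0. Of these 3 calls, *Ckm* passed without each of the 6 arrays, *Tnnt3* failed when 3 of them were left out in turn, and *Actc1* failed whichever array was left out. At 48 h 1 of the 7 was called higher (*Tnnt3*, 0.53, adjusted p = 0.028) and 0 lower, beside 4.63% and 5.61% of all genes. This *Tnnt3* call was lost when 5 of the 6 arrays were left out in turn (adjusted p of up to 0.086). Of the 6 measured markers of other cell types, limma called 0 with silencing on either day (1 at 48 h and 2 at 96 h at an unadjusted p under 0.05). Over all genes, 10.2% were called at 48 h and 6.83% at 96 h. With time 3 of these 6 rose in both treatments, beside 17.7% of all genes in control and 15.6% in silenced cells. They were *Tagln*, a smooth muscle gene below background at 48 h (at least 1.74-fold in control and 1.65-fold in silenced cells), the cardiac myosin *Myh6* (1.37 and 1.58) and the bone gene *Bglap* (1.38 and 1.44). The part of any of these markers in the *Trim54* differences was not tested. In a culture measured as a whole, fewer cells of a type and less RNA per cell cannot be told apart.

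Of 34 other ubiquitin ligases, adaptors and cofactors used in muscle, 20 were tested. At 48 h, 2 were called higher and 0 lower (8 at an unadjusted p under 0.05), beside 4.63% and 5.61% of all genes by adjusted p. At 96 h limma called 0 (4 unadjusted), beside 6.83% of all genes. *Ube2b*, a ubiquitin-conjugating enzyme, was higher by 0.34 at 48 h (adjusted p = 0.048, and up to 0.12 with an array left out). *Fbxl22*, an F-box protein of striated muscle, was not well above background on control 48 h arrays and at least 1.06-fold higher in silenced cells (adjusted p = 0.02, and up to 0.067 with an array left out). The list's median was 0.06 at 48 h and 0.03 at 96 h, beside 0. With time, 5 rose and 1 fell in control cells and 2 rose in silenced cells, beside 17.7% and 15.2% and 15.6% of all genes. *Cul3*, the scaffold of Kelch-adaptor ligases, rose by 0.41 in control cells (adjusted p = 0.0051), and *Fbxo21*, an F-box protein of muscle (SMART), by 0.29 in control (0.024) and 0.40 in silenced cells (0.0048). *Mdm2*, the ligase of p53, fell by 0.32 in control cells (adjusted p = 0.013). With an array left out, the control-cell calls of *Fbxo21* (adjusted p of up to 0.096) and *Mdm2* (up to 0.055) were lost in some fits, and that of *Cul3* was not. Other *Mdm2* probes gave -0.09 (adjusted p = 0.45) and -0.27 (0.21), and its call was lost with probe means (-0.22, 0.079) and with median scaling (-0.24, 0.1).

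The list of regulators upstream of FoxO, which also holds the FoxO factor *Foxo6*, had 30 genes, of which 22 were tested. Limma called 0 of them at 48 h (4 at an unadjusted p under 0.05) and 5 higher and 0 lower at 96 h (10 unadjusted), with medians of 0.03 and 0.04 beside 0. Over all genes tested 10.2% were called at 48 h, and 3.44% were called higher and 3.39% lower at 96 h, all by adjusted p. Those higher at 96 h were *Mtor*, the growth kinase (0.40, adjusted p = 0.032), *Akt1*, the kinase that phosphorylates FoxO (0.49, 0.045, from a probe near background), *Pik3r2*, a regulatory subunit of PI3-kinase (0.44, 0.042), *Smad3*, a mediator of myostatin signalling (0.38, 0.047), and *Foxo6*. *Foxo6*, the remaining FoxO factor and a gene outside the 9, was higher by 0.60 on its brightest probe (SE 0.094, 1.52-fold, adjusted p = 0.015). Its other probe gave 0.42 in the fit over probes (adjusted p = 0.042). The *Foxo6* call was lost without control 96 h replicate 1 (adjusted p = 0.058) and with all 12 arrays in the fit (0.084). Over the 10 other settings its difference ranged from 0.12 to 0.64. The other 4 calls were lost whichever of the 6 arrays was left out (adjusted p of up to 0.14). The *Akt1* probe was detected on 2 of 3 control 96 h arrays, and its call was also lost in 7 of 10 other settings, with a difference as low as 0.05. The other *Pik3r2* probe gave 0.42 (adjusted p = 0.06). With time, 2 were higher and 5 lower in control cells (median -0.13) and 5 were higher and 5 lower in silenced cells (median 0.15), beside 0.02. The shares over all genes were 17.7% higher and 15.2% lower in control cells and 15.6% and 12.4% in silenced cells. *Sgk1*, an AKT-related kinase that also phosphorylates FoxO, fell by 0.84 in control (adjusted p = 2.5e-05) and 0.49 in silenced cells (0.0014). *Igf1r*, the IGF receptor, fell by 0.49 in control cells (adjusted p = 0.013), and *Akt2* by 0.77 in silenced cells (0.003). Over the 10 other settings these ranged from -0.49 to -0.07 and from -0.77 to -0.15. Among those that rose were *Pik3r1* in control cells (0.60, adjusted p = 0.026) and *Mtor* (0.43, 0.0024) and *Smad3* (0.36, 0.022) in silenced cells. With an array left out, the *Pik3r1* and *Smad3* calls were lost in some fits (adjusted p of up to 0.1 and 0.085).

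Transcripts known as FoxO targets or atrophy genes were called in both directions (37 listed, 35 tested). At 48 h, 4 of 35 were called higher and 1 lower, beside 4.63% and 5.61% of all genes, with a median of 0.08 beside 0. *Ccng2*, a cyclin G and FoxO target, was higher in silenced cells by 0.73 (SE 0.11, 1.66-fold, limma adjusted p = 0.0094), with means of 6.93 and 7.66. It passed in all 10 other settings, but its size depended on the processing, with differences of 0.20 to 0.74. The autophagy genes *Map1lc3b* (0.56, adjusted p = 0.017) and *Atg12* (0.44, 0.023) and the thioredoxin inhibitor *Txnip* (0.35, 0.039) were higher too, and the stress gene *Gadd45b* was lower (-0.47, 0.04978). Of these 5 calls, *Ccng2* passed without each of the 6 arrays. *Map1lc3b* was lost without control 48 h replicate 2 or silenced 48 h replicate 2 (adjusted p of up to 0.057), *Atg12* when 5 of the arrays were left out in turn (up to 0.078), and *Txnip* and *Gadd45b* whichever array was left out (up to 0.13). At 96 h the count was 0 higher and 1 lower (13 at an unadjusted p under 0.05), beside 3.44% and 3.39% of all genes, with a median of -0.01 beside 0. These shares are by adjusted p, and no share of all genes was computed for the unadjusted count. The 1 lower was the mitophagy receptor *Bnip3l* (-0.39, adjusted p = 0.034, and up to 0.12 with an array left out).

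With time, 14 of these 35 transcripts rose and 8 fell in control cells, beside 17.7% and 15.2% of all genes, and in silenced cells 6 rose and 7 fell, beside 15.6% and 12.4%. *Pdk4*, the kinase that shuts pyruvate out of oxidation, rose by 1.73 in control (3.32-fold, limma adjusted p = 2.8e-06) and 1.33 in silenced cells (2.52-fold, 1.9e-05). *Txnip* rose by 1.11 and 0.61 and *Sesn1*, a sestrin, by 0.65 and 0.58. The other *Sesn1* probe gave 0.18 (adjusted p = 0.39) and -0.08 (0.74), and with probe means the silenced-cell call was lost (0.25, adjusted p = 0.065). *Sesn2*, the related sestrin, fell by 0.77 in control cells (adjusted p = 0.00027), and the lysosomal protease *Ctsl* by 0.82 (0.00036) and the stress factors *Atf4* by 0.87 (2.5e-05) and *Nfe2l2* by 0.94 (0.00025) in silenced cells. The medians were 0.01 and 0.02, beside 0.02 over all genes.

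Sarcomere proteins and partners or substrates named for these ligases formed the last list (23 listed). Of 21 tested, 3 were higher at 48 h and 2 at 96 h, with 0 lower on either day and medians of 0.03 and 0.05 beside 0. Over all genes, 4.63% and 3.44% were called higher on those days and 5.61% and 3.39% lower. *Mybpc1*, a myosin-binding protein C, was higher on both days (0.67, limma adjusted p = 0.021, and 0.81, 0.046). *Tnni1*, the slow troponin I, was higher at 48 h (0.50, adjusted p = 0.014), as was *Srf*, the serum response factor (0.42, 0.023), whose other probe gave -0.28 (0.51). *Tnni1* passed without each array, *Srf* (adjusted p of up to 0.067) and the 48 h difference of *Mybpc1* (up to 0.064) did not, and *Mybpc1* failed at 96 h when 5 of the 6 arrays were left out in turn (adjusted p of up to 0.14). With time 5 rose and 2 fell in control cells, beside 17.7% and 15.2% of all genes, and 6 rose and 3 fell in silenced cells, beside 15.6% and 12.4%. *Ttn*, titin, rose by 0.82 in silenced cells (adjusted p = 0.0012).

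**Figure D4:**
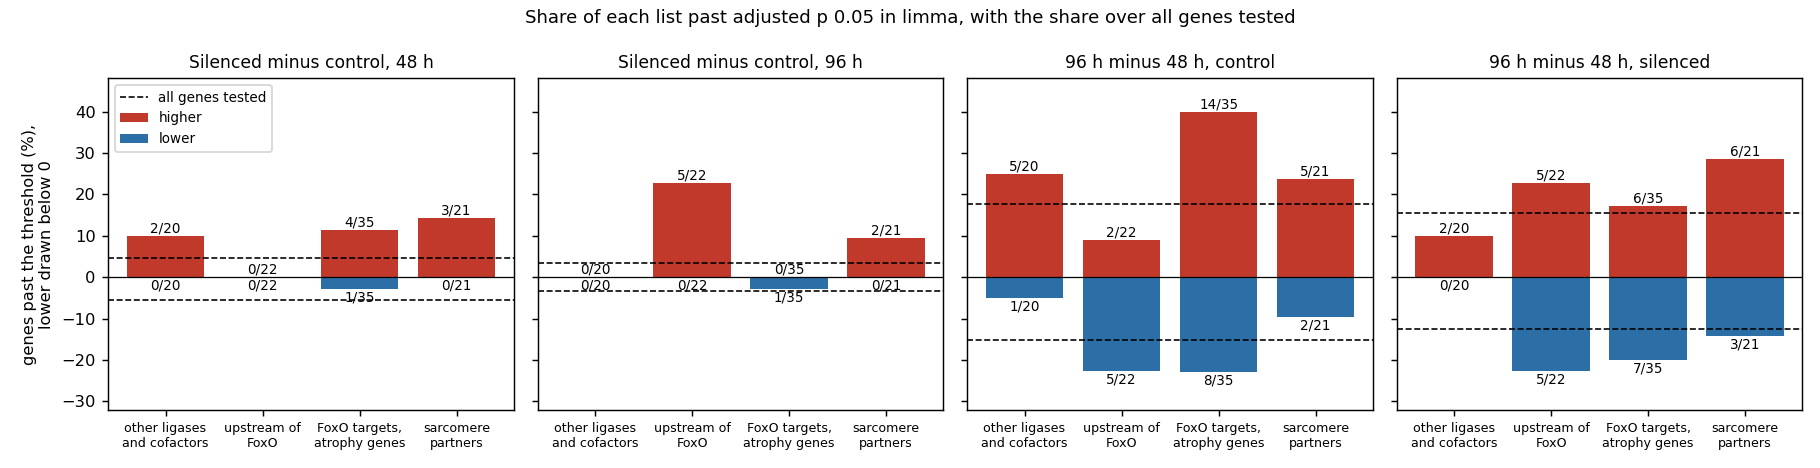
Percent of the tested genes of each list past an adjusted p of 0.05 in limma (y axis, higher above 0 and lower below 0), with counts at the bars, for 4 lists (x axis) in 4 comparisons. Dashed lines give the share over all 8858 genes tested, such as 3.44% higher at 96 h, beside which 5 of the 22 tested genes of the list of FoxO regulators, *Foxo6* among them, were called higher.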

How the data were processed

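Total RNA of 12 cultures was measured on Illumina BeadChips (MouseRef-8 v2). The authors deposited raw bead intensity per probe, not normalized. Per the file headers, a detection p-value stands beside each intensity, with a step of 1 in 798. Processed log2 values (lumi in FlexArray) were deposited too, whose exact transformation and centring are not given in the sources used here. Each processed column correlated with its own array at 0.777 to 0.848 and with other arrays at up to 0.642 (log2 signal less probe means). The column medians lay between 7.845 and 7.851, and these values served for an alternative only. Columns that belong to no sample numbered 0.

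Intensities were background corrected from the detection p-values, offset by 16, quantile normalized and log2 transformed (neqc, limma 3.58.1, R 4.3.3). Of 25697 probes, 23978 had 1 symbol in the platform annotation, 0 had several and 1719 had none. Gene IDs compared with RefSeq changed 0 symbols. A probe was kept where its detection p-value was under 0.05 on 3 or more of the 12 arrays (13095 probes), and a gene was read from its brightest kept probe (8858 genes). Silencing was tested with limma on the 6 arrays of each day, time and the interaction on all 12, with Benjamini-Hochberg adjustment and a threshold of 0.05. Where no array of a group detected a probe, the fold is a lower bound, taken from the brighter mean and the higher of the lowest detected signal and the probe's own. The scripts were tested on simulated data.

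All members were described. Of each wider list, up to 6 called genes per comparison with the smallest p, and for each member the 3 genes with the highest correlation, could be named. Members and lists were chosen with earlier results of these data known. The alternatives were median scaling, the processed values, an offset of 50, no background correction, detection on 6 arrays, no filter, probe means, single probes, other arrays in the fit, the replicate number as a block and leaving out each array. The treatment protocol calls the replicates biological, but nothing there says whether they came from separate days, so p-values measure the spread between these cultures. On which slide an array lay is not stated. The number of arrays limits the precision. Replicate numbers did not pair the samples: deviations of same-numbered arrays correlated at -0.22 to 0.17.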

Additional observations from a re-analysis of the deposited data

Results flagged for a closer look

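No member met a criterion for a closer look. Of the wider lists, 9 genes had a silencing effect that differed between 48 h and 96 h, by limma's test of the difference itself (96 h effect minus 48 h effect, adjusted over 8858 genes). *Ccng2* had a difference of -0.75 (adjusted p = 0.016), with 0.73 at 48 h and -0.02 at 96 h. *Txnip* had -0.50 (0.033), with 0.35 and -0.15, *Gabarap* -0.48 (0.044), with 0.25 and -0.23, and *Srf* -0.43 (0.043), with 0.42 and -0.01. *Usp14* had -0.53 (0.049), with 0.38 and -0.15. The difference was positive for *Rbl2* at 0.68 (0.038), with -0.35 and 0.34, its probe being not well above background in silenced 48 h. It was positive too for *Acvr2b* at 0.65 (0.033), with -0.34 and 0.31, *Inppl1* at 0.50 (0.048), with -0.20 and 0.30, and *Mdm2* at 0.46 (0.04955), with -0.25 and 0.21. The silencing effect of a single day was called for *Ccng2*, *Txnip* and *Srf*, each at 48 h only. For *Gabarap*, *Usp14*, *Rbl2*, *Acvr2b*, *Inppl1* and *Mdm2* it was called on neither day (limma adjusted p of 0.05015 to 0.36). Of these 9 differences, *Ccng2* alone passed without each of the 12 arrays in turn (adjusted p of up to 0.042), and it did not pass with median scaling. Over the 9 other settings the *Ccng2* difference ranged from -0.75 to -0.20. *Inppl1*, *Mdm2* and *Srf* failed whichever array was left out, and the other 5 failed for 8 to 11 of the 12 arrays. With probe means the *Srf* difference reversed to 0.06 and was not called.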

How the results depend on the processing

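The fall of *Trim54* with time in control cells passed in all 10 other settings and without each array, and so did both time changes of the dimmest *Fbxo32* probe in every setting run for it. The 96 h *Trim54* difference of 0.47 passed in 9 of 10 settings. With the replicate block it was 0.47 (adjusted p = 0.062), which left 0 members called at 96 h. Of 5 members, 2 were called at 96 h with no background correction, with median scaling and with an offset of 50, where *Trim63* passed too. With time in control cells, 1 member (*Trim54*) was called with no filter, where *Fbxo30* had an adjusted p of 0.056. With probe means, an average that takes in the dimmest probe, *Fbxo32* was called in silenced cells (-0.45, adjusted p = 0.0031), where it was the 1 call, and in control cells (-0.34, 0.015), where 3 members were called. No other call of a member changed with the block.

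Over all genes, 907 were called at 48 h, against 1468 with no background correction, 468 with median scaling and 1397 with all 12 arrays. At 96 h 605 were called, against 1116 with no background correction, 1031 with an offset of 50, 366 with no filter and 222 with the replicate block. For the interaction 398 were called, against 639 with the processed values, 770 with no background correction, 123 with median scaling, 657 with an offset of 50 and 206 with the replicate block. The causes were not tested. With median scaling the share of calls that were higher moved from 45.2% to 53.4% at 48 h, from 50.4% to 63% at 96 h, from 53.8% to 68.6% with time in control cells and from 55.8% to 70.3% in silenced cells, and the median of all genes shifted to at most 0.09.

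With 1 array left out, 250 to 543 genes were called at 48 h, 90 to 408 at 96 h, 2139 to 2585 with time in control cells, 1860 to 2214 in silenced cells and 89 to 321 for the interaction, with fewer samples in each fit. Of the members, 0 to 2 were then called at 96 h, 1 to 2 with time in control cells and 0 in the other comparisons. The interaction of *Srf*, called at -0.43, reversed to 0.06 with probe means. Values near 0 changed sign too. *Fbxo32* at 48 h was -0.01 with probe means. With an array left out, *Foxo1* ranged from -0.05 to 0.10 at 48 h, from -0.15 to 0.01 at 96 h and from -0.02 to 0.14 with time in silenced cells, and *Fbxo30* from -0.10 to 0.09 at 48 h. The second *Fbxo32* probe ranged from -0.14 to 0.11 at 96 h and from -0.24 to 0.04 with time in silenced cells, and the interaction of the dimmest from -0.03 to 0.25. Of 85 calls of listed genes considered for naming, 46 passed without each array and 53 in every other setting. Signal near background limits *Foxo3*, *Foxo4*, the dimmest *Fbxo32* probe and the second *Fbxo30* probe.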
